A study of Mus musculus with 12 samples.

Results

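The receptor activity-modifying proteins, Ramp1, Ramp2 and Ramp3, and the calcitonin receptor-like receptor, Calcrl, were followed across 4 groups of immortalized murine brown adipocytes. The 4 genes were selected on their symbols from the 48321 rows of the normalized expression matrix, and the family was proposed because Ramp3 is among the largest increases after norepinephrine (NE) in both lines. The NE differences of the 4 genes are therefore given as a description, with no test. The cells were brown preadipocytes of a single newborn wild-type mouse, immortalized with the SV40 large T antigen and stably transduced with a lentivirus that carried either the empty pLEX vector or tSema4B, a truncated Semaphorin 4B built to mimic the form released by the protease ADAM17. Every group was differentiated until day 8 and held for 6 h in serum-free medium with albumin, either unstimulated or with 2 µM NE. The 4 groups are named by construct and condition (vector or tSema4B, unstimulated or NE), and each had 3 RNAseq libraries. A single line stood for each construct, and the libraries of a group are described as technical replicates, so p-values measure the spread between these libraries.

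CALCRL is a receptor coupled to the stimulatory G protein, and it reaches the cell surface and recognizes its peptides only in complex with a RAMP. With RAMP1 it forms the receptor for calcitonin gene-related peptide (CGRP), and with RAMP2 or RAMP3 it forms the receptors for adrenomedullin. RAMP3 also takes part in the sorting of receptors after internalization. In tissues the family is best known from vascular and lymphatic endothelium, smooth muscle and nerves, and NE raises cAMP in brown adipocytes through beta-adrenoceptors.

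Values are normalized read counts, that is reads per gene divided by a size factor of the library. The libraries held between 2000780 and 5409583 reads on genes, and the vector NE libraries were the deepest. Sema4b, which checks the labels, had a mean of 116797 ± 6692 in vector unstimulated and 281514 ± 31108 in tSema4B unstimulated libraries, and 74266 ± 8219 in vector NE and 234276 ± 32374 in tSema4B NE libraries (SD, n = 3). Its libraries did not overlap between the lines in either condition. Sema4b was also high in the vector libraries, at 3.58% to 4.02% of reads on genes without stimulation and 2.04% to 2.57% after NE, against 8.53% to 10.2% and 7.01% to 8.88% in tSema4B libraries. The lines thus differ in the amount of Sema4b reads and not in their presence. The summed level of 10 adipocyte markers lay between 42229 and 48589 in vector unstimulated libraries and between 7368 and 10115 in tSema4B unstimulated libraries. After NE it lay between 55998 and 67499 in vector and between 11361 and 12901 in tSema4B libraries. Of 8 brown adipocyte markers, Dio2 had no read in any library, and Ucp1 had a mean of 12.1 ± 2.98 in vector unstimulated and 276 ± 14.5 in vector NE libraries. In tSema4B cells Ucp1 had no read without stimulation and a mean of 62.9 ± 3.10 after NE. The summed level of the 8, Ucp1 included, lay between 215 and 268 in vector unstimulated and between 491 and 521 in vector NE libraries. In tSema4B libraries it lay between 52.4 and 76.7 without stimulation and between 126 and 151 after NE. In these bulk samples fewer cells of a type and less RNA per cell cannot be told apart.

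Ramp3, the smallest gene model of the family with 1380 exon bases, lies on chromosome 11 between positions 6658521 and 6677475 of GRCm38, on the plus strand (GENCODE, ENSMUSG00000041046.7). The stretch just upstream is shown because Ramp3 carries the main difference of the family. It covers chr11:6658283-6658520 on the plus strand of GRCm38.p6, as given by RefSeq, and capitals mark GC boxes, GGGCGG on either strand.
Ramp3: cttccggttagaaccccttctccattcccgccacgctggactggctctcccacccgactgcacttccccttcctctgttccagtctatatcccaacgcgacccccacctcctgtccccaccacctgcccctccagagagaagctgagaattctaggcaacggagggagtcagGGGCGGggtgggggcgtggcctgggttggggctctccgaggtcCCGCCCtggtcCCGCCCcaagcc
The 238 bases held 66.0% G and C and 3 GC boxes, which ended 61, 18 and 7 bases before the GENCODE start. Windows of 300 bases around the RefSeq start were searched on both strands for Ramp1, Ramp3 and Calcrl, the 3 of the 4 genes with an entry, beside 32851 promoters in all. A GC box was found in 35.7% of all promoters, with 3 matches for Ramp3, 1 for Calcrl and 0 for Ramp1. The complete cAMP response element TGACGTCA, held by 1.79% of promoters, had no match in the 3 windows. The shorter element TGACG, which lies within the complete element, was held by 20.8% of promoters and had 1 match, in the Ramp1 window. The NR4A site AAAGGTCA, held by 1.51% of promoters, the CCAAT box (37.4%) and the TATA box TATAAA (13.6%) had no match in the 3 windows. A match is a run of letters and not a site of binding.

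Ramp3 had at most 2 reads in a library without stimulation and at least 54 after NE. The vector unstimulated libraries had normalized read counts of 2.17, 0.841 and 1.09, which are 2, 1 and 1 reads. The tSema4B unstimulated libraries had 0 reads each, where 3 reads would have been worth between 3.58 and 4.64. After NE the vector libraries had 41.0, 68.2 and 66.1 (61, 115 and 101 reads) and the tSema4B libraries 90.1, 60.6 and 71.4 (84, 64 and 54 reads). Every NE library stood above every unstimulated library of its line. In vector cells the ratio of reads, scaled for depth, was 44.6, with a 95% interval from counting error alone of 17.2 to 165. In tSema4B cells the mean of 74.0 ± 14.9 was at least 18.0-fold higher than the value of 3 reads per library. Taken against 3 reads per library in the same way, the vector NE mean was 19.4-fold higher.

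On the scale of log2(normalized count + 1) the Ramp3 difference between NE and unstimulated libraries was 4.65 (SE 0.522) in vector cells and 6.21 (SE 0.522) in tSema4B cells. By this difference Ramp3 ranked number 3 in vector cells and number 1 in tSema4B cells among 11998 genes tested. Because the unstimulated level is at or under 3 reads per library, the fitted differences are no bounds on the change. With pseudocounts of 10 and 0.5 they were 2.57 and 5.01 in vector and 3.06 and 7.20 in tSema4B cells, and on recovered reads they were 5.35 and 9.29 with edgeR and 5.47 and 8.21 with DESeq2. Ramp3 passed the filter for low values (10 normalized counts in at least 3 libraries) only through its NE libraries. With a threshold of an adjusted p of 0.05 and a log2 fold change of 1, 1.66% of all tested genes were higher and 0.975% lower after NE in vector cells, and 1.31% higher and 0.758% lower in tSema4B cells. Groups of 3 libraries that did not overlap were found for 33.3% of genes in vector cells and 20.7% in tSema4B cells. These shares are given for scale only, since the same contrasts chose the family.

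The lines did not differ detectably in Ramp3 after NE. The mean was 58.4 ± 15.1 in vector and 74.0 ± 14.9 in tSema4B libraries (SD, n = 3), and the groups overlapped. The log2 difference between tSema4B and vector was 0.35 (SE 0.522, 95% interval -0.73 to 1.44, limma with Benjamini-Hochberg adjustment over all tested genes, adjusted p = 0.684). Without stimulation both lines were at or under 3 reads in every library, so the fitted difference was not used. Each vector library there had 1 or 2 reads and each tSema4B library 0, so the libraries did not overlap, at a level of few reads. Whether the NE response of Ramp3 differed between the lines was not tested.

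**Figure D1:**
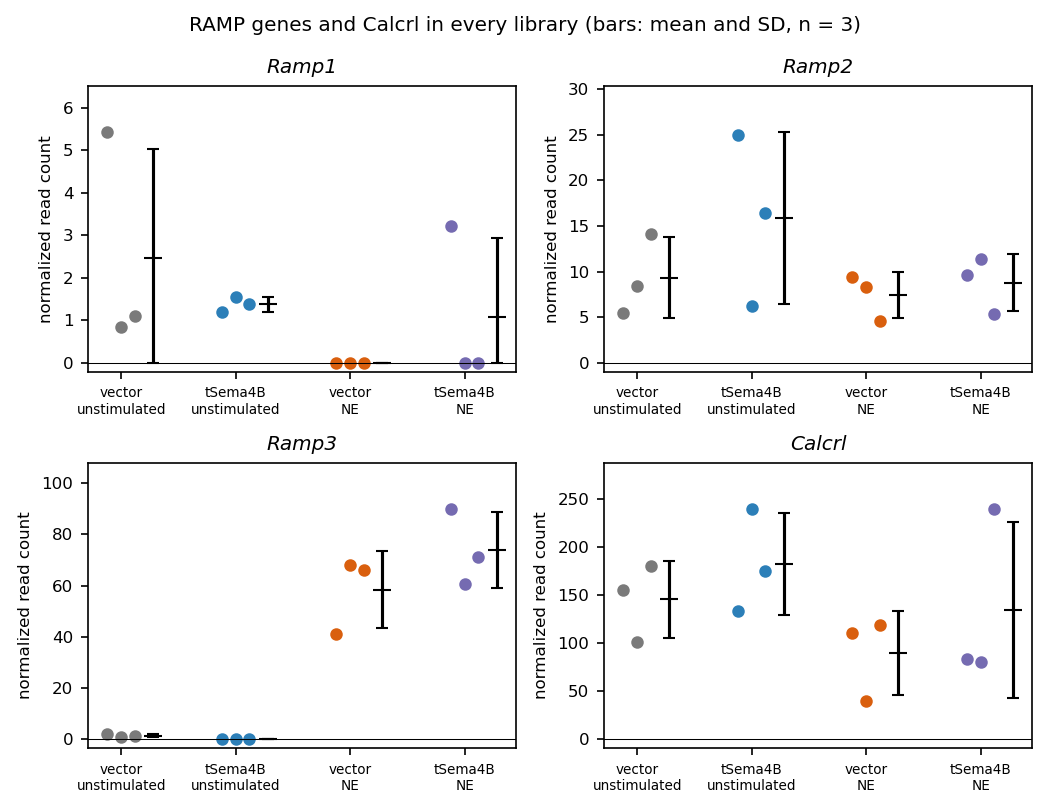
Normalized read counts of Ramp1, Ramp2, Ramp3 and Calcrl (vertical axes, each from 0 and with its own range) in the 4 groups, with a point for each library and bars for the mean and SD (n = 3), drawn no lower than 0. Ramp3 lay between 0 and 2.17 without stimulation and between 41.0 and 90.1 after NE, whereas Ramp2 and Calcrl overlapped in each of the 4 comparisons of groups.

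Calcrl, the receptor itself, was present in every library at 67 to 182 reads. It lies on chromosome 2 between 84330626 and 84425411, on the minus strand (ENSMUSG00000059588.13). The vector unstimulated libraries had normalized read counts of 155, 102 and 181 and the tSema4B unstimulated libraries 133, 240 and 175. After NE the vector libraries had 111, 39.7 and 119 and the tSema4B libraries 83.6, 80.5 and 240. Calcrl was thus lowest in the second vector NE library, and the third tSema4B NE library was as high as the highest unstimulated library.

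The mean of Calcrl after NE was 89.9 ± 43.7 in vector and 135 ± 91.5 in tSema4B libraries, against 146 ± 40.4 and 183 ± 53.5 without stimulation. The log2 difference between NE and unstimulated libraries was -0.81 (SE 0.376) in vector and -0.59 (SE 0.376) in tSema4B cells, and the groups overlapped in both lines. Without vector NE replicate 2 the former was -0.30, and without tSema4B NE replicate 3 the latter was -1.11. The coefficient of variation between the libraries of a group was 27.6% to 67.8%, where counting error alone gives 8.35% to 9.33%.

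In the comparison of tSema4B with vector, Calcrl had a log2 difference of 0.32 without stimulation (SE 0.376, 95% interval -0.46 to 1.10, limma adjusted p = 0.644). After NE the difference was 0.54 (95% interval -0.25 to 1.32, limma adjusted p = 0.344). The NE responses of the lines differed by 0.21 (SE 0.532, 95% interval -0.89 to 1.32, limma adjusted p = 0.928). None of the 3 passed the threshold, and each of the intervals includes a difference of 1 in the upward direction. Leaving out 1 library moved the unstimulated difference between 0.084 (without vector unstimulated replicate 2) and 0.53 (without tSema4B unstimulated replicate 1). After NE it was 0.032 without vector NE replicate 2, 0.022 without tSema4B NE replicate 3 and up to 0.81 without another library.

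Ramp2, the partner in the main adrenomedullin receptor of vessels, was low in all groups, at 4 to 21 reads per library. It lies on chromosome 11 between 101246028 and 101259546, on the plus strand (ENSMUSG00000001240.13). The vector unstimulated libraries had normalized read counts of 5.43, 8.41 and 14.2 and the tSema4B unstimulated libraries 25.0, 6.19 and 16.4. The NE libraries had 9.41, 8.30 and 4.58 in vector and 9.65, 11.4 and 5.29 in tSema4B cells. The groups overlapped in each of the 4 comparisons. In the GENCODE annotation 1103 of its 3301 exon bases are shared with Vps25 on the same strand, and Vps25 itself, 67.2% of whose exon bases are shared with Ramp2, had only 0 to 6 reads per library. How the authors' counting assigned reads in the shared bases is not given in the sources used here.

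The log2 difference of Ramp2 between NE and unstimulated libraries was -0.25 (SE 0.592) in vector and -0.66 (SE 0.592) in tSema4B cells. Between tSema4B and vector the difference was 0.61 without stimulation (95% interval -0.62 to 1.84, limma adjusted p = 0.566). After NE it was 0.21 (95% interval -1.02 to 1.43, limma adjusted p = 0.849). The NE responses of the lines differed by -0.40 (95% interval -2.14 to 1.33, limma adjusted p = 0.913). Leaving out 1 tSema4B unstimulated library moved the unstimulated difference between the lines from 0.20 (without replicate 1) to 1.13 (without replicate 2), and the NE difference in tSema4B cells from -0.25 to -1.18. Each of the intervals includes a difference of 1, so 2-fold differences are not excluded. The coefficient of variation between the libraries of a group was 34.0% to 59.4%, where counting error alone gives 28.5% to 34.6%.

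Ramp1, the CGRP partner, was at the limit of detection. It lies on chromosome 1 between 91179822 and 91225196, on the plus strand (ENSMUSG00000034353.14). The vector unstimulated libraries had 5, 1 and 1 reads and the tSema4B unstimulated libraries 1 read each. The vector NE libraries had no read, and the tSema4B NE libraries had 3, 0 and 0 reads. In vector cells the NE libraries thus lay below the unstimulated libraries, at a level of few reads. Ramp1 failed the filter and no test was made.

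Between the lines Ramp2 and Calcrl were tested in both conditions and Ramp3 after NE, and 0 of these tests gave a call by limma, edgeR or DESeq2, or an unadjusted p under 0.05. Over all tested genes, 1.11% were called higher and 2.71% lower in tSema4B without stimulation, and 2.03% higher and 3.73% lower after NE. The libraries of the lines did not overlap for 29.4% of all tested genes without stimulation and for 37.7% after NE, and they overlapped for Ramp2 and Calcrl in both conditions. The interaction of tSema4B and NE passed an adjusted p of 0.05 for 0.0250% of genes with limma, which are 3 genes higher and 0 lower. DESeq2 gave 29 higher and 58 lower, edgeR 3 and 1, and limma without tSema4B unstimulated replicate 2 gave 9 and 22.

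The order of the family was read from normalized read counts per kilobase of exon. Without stimulation Calcrl was highest, with 29.9 ± 8.27 in vector and 37.5 ± 11.0 in tSema4B cells, followed by Ramp2 with 2.83 ± 1.34 and 4.81 ± 2.86. Ramp1 and Ramp3 followed in vector cells with 0.812 ± 0.854 and 0.991 ± 0.513, and their libraries overlapped each other. In vector unstimulated replicate 1 Ramp1 was above Ramp2 (1.80 and 1.64), so the order of these 2 genes is not resolved in vector cells. After NE Ramp3 was highest, with 42.3 ± 11.0 in vector and 53.6 ± 10.8 in tSema4B cells. Calcrl came next with 18.4 ± 8.95 and 27.6 ± 18.7, and Ramp2 with 2.25 ± 0.765 and 2.66 ± 0.949. Ramp3 exceeded Calcrl per kilobase in all 6 NE libraries, by 1.31, 6.07 and 1.96 times in vector and 3.81, 2.66 and 1.05 times in tSema4B cells. The ranges of Ramp3 and Calcrl did not overlap in vector NE libraries (29.7 to 49.4 and 8.13 to 24.4) and overlapped in tSema4B NE libraries (43.9 to 65.3 and 16.5 to 49.3). This order after NE rests on the division by length. In reads Ramp3 and Calcrl had 61 and 165, 115 and 67, and 101 and 182 in vector NE libraries. In tSema4B NE libraries they had 84 and 78, 64 and 85, and 54 and 182.

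The composition of the RAMP transcripts was unlike without and with NE. Without stimulation Ramp2 made up 32.8%, 74.2% and 78.9% of the summed RAMP level per kilobase in vector libraries and 95.1%, 78.5% and 91.7% in tSema4B libraries. In vector unstimulated replicate 1 Ramp1 made up 35.8% and Ramp3 31.4%. After NE Ramp3 made up 91.2%, 95.2% and 97.2% in vector and 94.2%, 92.7% and 97.0% in tSema4B libraries. The unstimulated shares rest on 5 to 22 RAMP reads per library and the NE shares on 58 to 129. In read numbers, Ramp3 gave 0 of 22, 0 of 5 and 0 of 13 RAMP reads in tSema4B unstimulated libraries, where the exact Clopper-Pearson upper limits are 15.4%, 52.2% and 24.7%. In NE libraries Ramp3 gave 81.3%, 89.1% and 93.5% of RAMP reads in vector and 87.5%, 84.2% and 93.1% in tSema4B cells. The lower limits of these shares lay between 70.7% and 87.1%. These limits cover counting error only.

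The summed RAMP level per kilobase was 3.43 to 5.44 in vector unstimulated and 2.39 to 7.98 in tSema4B unstimulated libraries, and 32.6 to 51.9 in vector NE and 47.4 to 69.3 in tSema4B NE libraries. Relative to Calcrl it was 0.147 to 0.165 in vector unstimulated, 0.0486 to 0.292 in tSema4B unstimulated, 1.43 to 6.38 in vector NE and 1.08 to 4.04 in tSema4B NE libraries. Per kilobase, RAMP transcripts were thus below Calcrl in all 6 unstimulated libraries and above it in all 6 NE libraries. The mean Ramp3 share after NE was 94.5% ± 3.02 in vector and 94.7% ± 2.16 in tSema4B libraries (SD, n = 3). It is close to its upper limit in both lines, and 3 against 3 libraries cannot give a p under 0.1 in an exact permutation test, so no comparison of the lines is drawn from it.

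**Figure D2:**
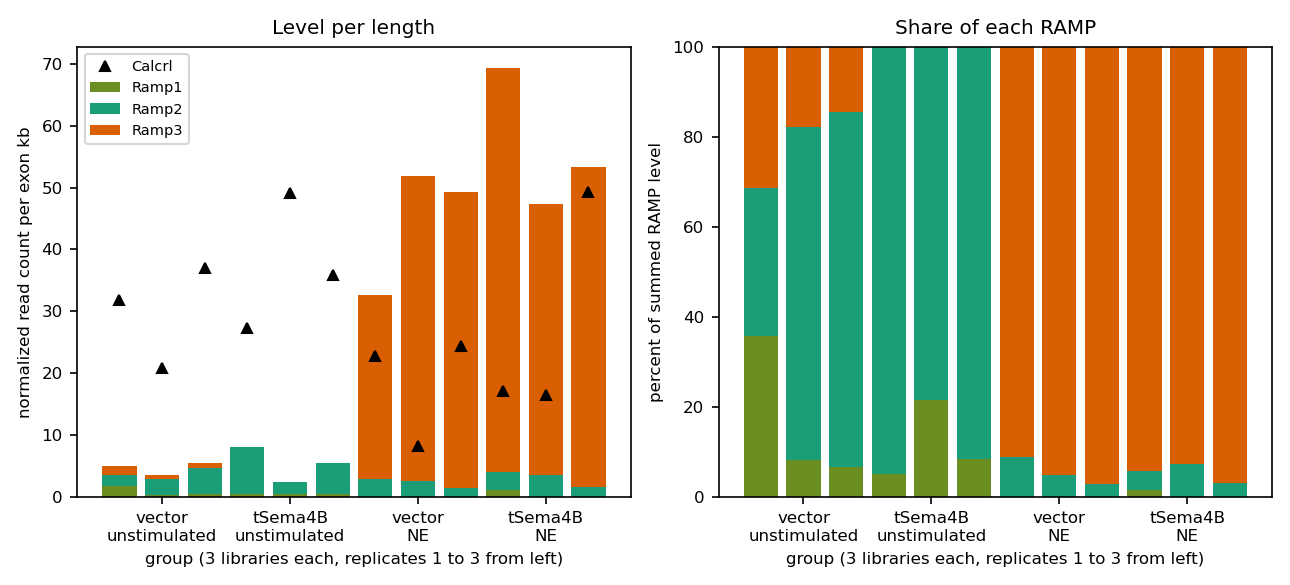
Left, normalized read counts per exon kilobase of Ramp1, Ramp2 and Ramp3 as stacked bars and of Calcrl as triangles, in each of the 12 libraries. Right, the share of each RAMP in the summed RAMP level of the same library, where Ramp3 made up 91.2% to 97.2% in the NE libraries and 0% to 31.4% in the others.

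Among markers of the tissues known for this family, those of endothelium were mostly at or near 0 reads and those of mural cells were present. Of 15 blood endothelial markers 6 had no read in any library (Kdr, Tie1, Esam, Cldn5, Sox17 and Robo4) and 11, those 6 included, had at most 3 reads in every library. Cdh5 had 1 read in all libraries together. The summed level lay between 110 and 152 in vector unstimulated, 197 and 280 in tSema4B unstimulated, 77.3 and 108 in vector NE and 157 and 181 in tSema4B NE libraries. Most of it was Flt1, with a mean of 106 ± 26.3 in vector unstimulated, 201 ± 43.9 in tSema4B unstimulated, 66.7 ± 12.3 in vector NE and 121 ± 6.64 in tSema4B NE libraries. In both lines the sum was thus lower in every NE library than in every unstimulated library. Egfl7 had 45 reads in vector unstimulated, 32 in tSema4B unstimulated, 90 in vector NE and 83 in tSema4B NE libraries together. In the same order Pecam1 had 22, 31, 38 and 37 reads and Tek 0, 6, 0 and 5, not scaled for depth. The fall of the sum was that of Flt1 and was not shared by every marker. Of 5 lymphatic endothelial markers, Lyve1 and Reln had no read and Flt4 had 1 read in all. Prox1 had 2 reads in vector unstimulated and 5 in vector NE libraries, the 5 in a single library, and no read in tSema4B libraries. Pdpn, which fibroblasts also express, had a mean of 192 ± 23.9 in vector unstimulated, 330 ± 22.8 in tSema4B unstimulated, 461 ± 36.5 in vector NE and 828 ± 70.8 in tSema4B NE libraries. Pdpn was thus higher after NE in both lines.

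The summed level of 10 mural markers, which include smooth muscle genes, lay between 1550 and 2072 in vector unstimulated, 2421 and 2710 in tSema4B unstimulated, 1182 and 1440 in vector NE and 1405 and 2018 in tSema4B NE libraries. It was lower after NE in both lines. The 7 Schwann cell and neuron markers, of which Sox10 had no read, summed to between 32.7 and 43.4 in vector unstimulated, 66.7 and 107 in tSema4B unstimulated, 34.9 and 51.7 in vector NE and 58.1 and 75.1 in tSema4B NE libraries, and the ranges overlapped with and without NE in both lines. Of 7 macrophage markers, Ptprc and Adgre1 had no read, and the summed level lay between 13.1 and 21.7 in vector unstimulated and between 41.7 and 59.6 in vector NE libraries. In tSema4B cells the macrophage ranges overlapped, with 17.8 to 29.4 without stimulation and 25.7 to 52.1 after NE. Csf1r had 4 reads in vector unstimulated and 54 in vector NE libraries together, and 3 and 43 in tSema4B libraries. In the same order Cd14 had 40 and 152, and 42 and 58, and Cd68 had 11 and 22, and 2 and 7. These reads are not scaled for depth. Itgam and Lyz2 had at most 2 reads in a library. The part of these sums, and of the adipocyte marker sums above, in the values of the family was not tested.

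Among the ligands, transcripts of Adm and Calca were measured. Adm, which encodes adrenomedullin, did not pass the test after NE in either line and had means of 19.6 ± 4.74 in vector unstimulated, 23.2 ± 12.0 in tSema4B unstimulated, 19.9 ± 13.0 in vector NE and 16.5 ± 5.20 in tSema4B NE libraries, with log2 differences after NE of -0.12 and -0.34 and adjusted p from limma of 0.924 and 0.770. Calca, which encodes calcitonin and CGRP, had 1, 5 and 6 reads in vector unstimulated and 20, 19 and 8 in vector NE libraries, and 0, 1 and 0 reads in tSema4B unstimulated and 18, 9 and 3 in tSema4B NE libraries. Calca reached 10 normalized counts in 3 libraries, all after NE, so it passed the filter only through the condition in which it is high, and its NE differences are given with no test. In tSema4B cells the ratio of reads was 24.2 (95% counting interval 4.03 to 988) over a baseline of 1 read in 3 libraries, and the NE mean was 2.58 times the value of 3 reads per library. The fitted log2 difference there was 2.85 (SE 0.802) and ran from 0.90 with a pseudocount of 10 to 4.45 with DESeq2. In vector cells it was 1.25, and the libraries overlapped. Adm2, Calcb and Iapp were below the filter, with at most 7 reads in a library and no read for Iapp.

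Ackr3, an atypical chemokine receptor that also binds adrenomedullin and scavenges it, was higher in every NE library than in every unstimulated library of its line. It had 0, 0 and 7 reads in vector unstimulated and 81, 56 and 64 in vector NE libraries, and 3, 9 and 8 in tSema4B unstimulated and 45, 71 and 27 in tSema4B NE libraries. Like Ramp3, Ackr3 passed the filter only through its NE libraries, and its NE differences are given with no test. In vector cells, where 2 of the 3 unstimulated libraries had no read, the ratio of reads was 18.5 (95% counting interval 8.81 to 46.6). The log2 difference was 4.40 (SE 0.669) and ran from 2.12 with a pseudocount of 10 to 5.44 without vector unstimulated replicate 3. In tSema4B cells the ratio was 5.77 (3.60 to 9.73) and the log2 difference 2.41 (SE 0.669), with a range of 1.64 to 2.75 over the alternatives.

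Without stimulation Ackr3 had 20 reads in tSema4B and 7 in vector libraries in all, and the libraries of the lines overlapped. The fitted log2 difference of 2.19 ran from 0.65 with a pseudocount of 10 to 3.22 without vector unstimulated replicate 3, and it is given with no test at these read numbers. Calcr, the calcitonin receptor, had 7 reads in a single library and was below the filter. Crcp, whose product assists CALCRL signalling and is also a subunit of RNA polymerase III, did not pass the test in any contrast, with log2 differences after NE of 0.49 and 0.48 (limma adjusted p = 0.311 and 0.371).

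Among 5 tested genes for ligand processing and breakdown, 1 was called lower and 0 higher after NE in vector cells, and none in tSema4B cells or between the lines, beside 0.975% of all tested genes called lower and 1.66% higher in vector cells, 0.758% and 1.31% in tSema4B cells and 1.11% to 3.73% in a given direction between the lines. At these shares a list of 5 genes is too short to show fewer calls than the background. The median log2 difference of the 5 after NE was -0.10 in vector and -0.12 in tSema4B cells, beside -0.019 and -0.0048 over all tested genes. Mme, neprilysin, which cleaves CGRP and adrenomedullin, fell from 75.6 ± 16.3 to 34.1 ± 13.3 in vector cells, with a log2 difference of -1.17 (SE 0.369, limma adjusted p = 0.0421). In tSema4B cells it was 52.3 ± 17.7 and 27.3 ± 14.2, with a difference of -0.999 (limma adjusted p = 0.117). The call in vector cells was lost in 8 of 17 alternatives. Among these were the limma fits without vector unstimulated replicate 1 (0.170), 2 (0.0665) or 3 (0.0963) or vector NE replicate 2 (0.127) or 3 (0.199). Over all 17 alternatives the adjusted p ranged from 0.00643 to 0.199. In tSema4B cells Mme was called without tSema4B NE replicate 3 (-1.37, limma adjusted p = 0.0357).

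Pam, Cpe and Ece1 were higher in tSema4B than in vector cells in both conditions, by less than the fold threshold. An adjusted p of 0.05 or less at any fold was found for 13.0% of all tested genes without stimulation and for 21.0% after NE. Pam, which amidates the C terminus that adrenomedullin and CGRP need for activity, was 150 ± 18.9 in vector unstimulated and 260 ± 9.21 in tSema4B unstimulated libraries, with a log2 difference of 0.80 (limma adjusted p = 0.000512). After NE it was 154 ± 15.2 and 215 ± 15.7, a difference of 0.48 (limma adjusted p = 0.0224). Cpe, carboxypeptidase E, which trims peptide precursors, differed by 0.77 without stimulation and 0.79 after NE (limma adjusted p = 1.68e-05 and 9.90e-06). Ece1, endothelin-converting enzyme, which also degrades CGRP in endosomes, differed by 0.42 and 0.61 (limma adjusted p = 0.0337 and 0.00170). For these 3 genes the libraries of the lines did not overlap in either condition, as for 29.4% of all tested genes without stimulation and 37.7% after NE. The summed level of 12 preadipocyte and fibroblast markers was higher in the same tSema4B libraries, at 30469 to 34661 against 16266 to 16847 in vector without stimulation and at 28870 to 30460 against 13553 to 15586 after NE, and its part in these differences was not tested. Ide, the insulin-degrading enzyme, did not pass the test in any contrast.

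Among 14 other receptors listed as partners of a RAMP, 2 passed the filter (Adcyap1r1 and Pth1r) and 6 had no read in any library. Between the lines 1 of the 2 was called lower in each condition, beside 2.71% of all tested genes without stimulation and 3.73% after NE. Pth1r was not called in any comparison, and its difference between the lines was above 0 without stimulation and below 0 after NE. Adcyap1r1, the receptor for the peptide PACAP, was lower in tSema4B cells. It had normalized read counts of 184, 272 and 138 in vector unstimulated and 14.3, 7.73 and 19.2 in tSema4B unstimulated libraries, with a log2 difference of -3.78 (SE 0.508, limma adjusted p = 1.38e-05), number 11 among the decreases of all tested genes. After NE it had 70.6, 44.5 and 89.7 in vector and 2.14, 13.3 and 19.8 in tSema4B libraries, with a difference of -2.77 (limma adjusted p = 0.000444). The call held in 17 of 17 alternatives in both conditions. After NE Adcyap1r1 was lower in vector cells by a log2 difference of -1.52, which limma did not call (adjusted p = 0.0547). It was called in 7 of 17 alternatives, among them edgeR (0.00176), DESeq2 (0.000212) and limma with quantile normalization (0.0324) or a pseudocount of 10 (0.00413). Leaving out 1 library gave a limma adjusted p of up to 0.223. In tSema4B cells the difference after NE was -0.51 (limma adjusted p = 0.640), and the libraries overlapped. The summed adipocyte markers were lower in the same tSema4B libraries, as given above.

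**Figure D3:**
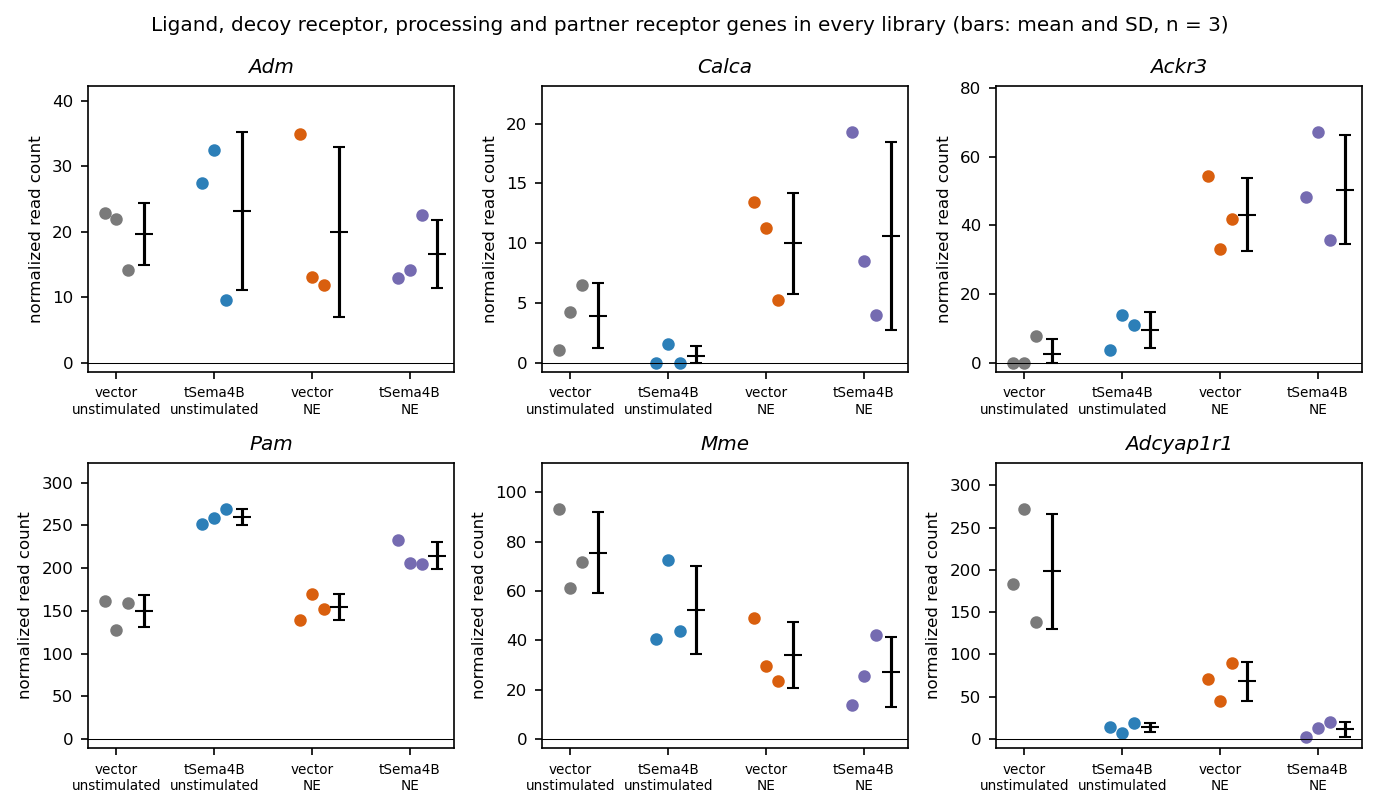
Normalized read counts (vertical axes from 0, each with its own range) of the ligand genes Adm and Calca, the scavenger receptor Ackr3, the processing genes Pam and Mme and the RAMP-pairing receptor Adcyap1r1 in every library, with the mean and SD (n = 3) as bars drawn no lower than 0. Ackr3 lay between 33.2 and 67.2 in all NE libraries, and Adcyap1r1 was at most 19.8 in the tSema4B libraries.

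The 13 tested genes for signalling and trafficking of the receptor, which cover the G protein subunit Gnas, receptor kinases, arrestins, scaffolds and Rab proteins, gave 0 calls by limma in each of the 4 comparisons of groups. An unadjusted p under 0.05 was found for 3, 3, 3 and 2 of them, and edgeR and DESeq2 called 0. An adjusted p of 0.05 or less with a smaller fold was found by limma for 2 genes between the lines without stimulation and for 1 in each of the other comparisons. At any fold, 13.0% and 21.0% of all tested genes passed that adjusted p between the lines without and with NE, and 11.6% and 6.25% after NE in vector and tSema4B cells. With 0.758% to 3.73% of all tested genes called in a given direction, 13 genes are too few to show a share below the background. Their median log2 difference after NE was -0.08 in vector and 0.22 in tSema4B cells.

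Of 17 tested genes of the cAMP response, 5 were called higher and 0 lower after NE in vector cells, and 2 higher and 0 lower in tSema4B cells, beside 1.66% and 1.31% of all tested genes called higher. The median log2 difference was 0.71 in vector and 0.16 in tSema4B cells, beside -0.019 and -0.0048 over all tested genes. Crem, a cAMP-induced regulator of transcription, rose in both lines, by 1.69 and 1.40 (limma adjusted p = 6.62e-06 and 0.000120). Junb, an AP-1 subunit, rose by 1.59 and 1.24 (limma adjusted p = 8.27e-08 and 2.93e-06). Both calls held in 17 of 17 alternatives in each line.

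In vector cells Pde4d, a cAMP phosphodiesterase, rose by 1.81 (limma adjusted p = 0.000423), and Nr4a1, an orphan nuclear receptor, rose by 1.71 (limma adjusted p = 0.00338). In tSema4B cells the differences were 0.90 (limma adjusted p = 0.0869) and -0.17 (limma adjusted p = 0.850). For Pde4d the call in tSema4B cells was made without tSema4B unstimulated replicate 1 (0.0360) or tSema4B NE replicate 2 (0.0390). The NE responses of the lines did not differ detectably for either gene (limma adjusted p = 0.482 and 0.181). After NE Nr4a1 was lower in tSema4B than in vector cells, by -1.60 (limma adjusted p = 0.00303), with 17.2, 28.4 and 41.0 against 83.3, 90.7 and 79.2.

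Without stimulation, Sik1 was called higher (1.33, limma adjusted p = 0.0215) and Per1 lower (-1.28, limma adjusted p = 0.0147) in tSema4B cells. The Sik1 call was lost in 6 of 16 alternatives, among them those without vector unstimulated replicate 2 (0.0534) or 3 (0.0883) or tSema4B unstimulated replicate 2 (0.0516) or 3 (0.0594). The Per1 call was lost in 4 of 17, among them those without vector unstimulated replicate 1 (0.0643) or 2 (0.0547) or tSema4B unstimulated replicate 3 (0.0840).

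**Figure D4:**
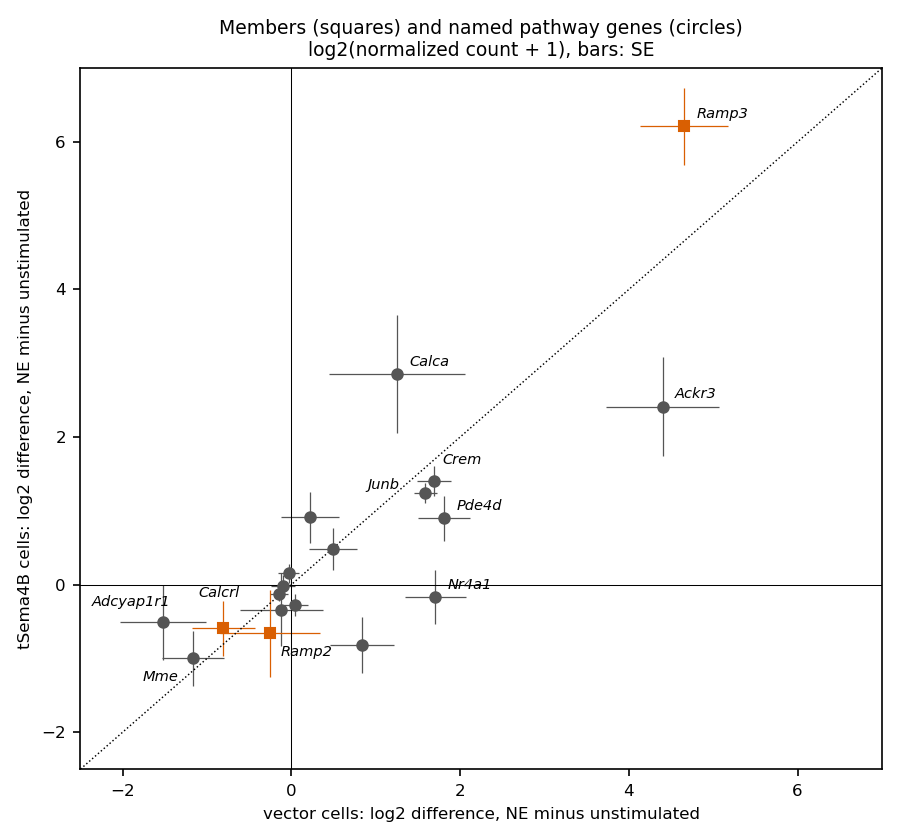
Difference between NE and unstimulated libraries on the scale of log2(normalized count + 1) in vector cells (horizontal axis) and tSema4B cells (vertical axis) for Ramp2, Ramp3 and Calcrl (squares) and the named pathway genes (circles), with SE bars and a dotted line of equal differences. Ramp3 is at 4.65 and 6.21 and Ackr3 at 4.40 and 2.41, while Ramp2 and Calcrl lie below 0 on both axes.

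The genes whose pattern was most like that of each member were found by Pearson's correlation over the 12 libraries, as a description across libraries that share 4 group means. For Ramp3 they were Gsto1 (r = 0.982), Ugdh (0.966) and Arntl (0.960). Gsto1, a glutathione transferase, had means of 530 in vector unstimulated, 483 in tSema4B unstimulated, 1019 in vector NE and 1031 in tSema4B NE libraries. For Ramp2 they were Zfp882 (0.907), Rras (0.871) and Pik3r1 (0.854), and for Calcrl they were Fnta (0.915), Manba (0.878) and Pak4 (0.876). The group means of Fnta lay between 413 and 461.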

How the data were processed

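RNAseq of 12 libraries (SMART-Seq2 cDNA, Nextera, single-end) was used. Per the labels and the study's methods, the authors screened reads with FastQ Screen, aligned them with STAR 2.7.9a to mm10/GRCm38.p4, counted them with htseq-count and normalized with DESeq2. The deposited signal is thus a normalized read count. Divided by the smallest step of its library, 100% of the values above 0 came out whole (tolerance 0.01), so reads were recovered. Annotation and strand setting are not given in the sources used here.

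In R 4.3.3, limma 3.58.1 was run on log2(value + 1) for the 11998 genes that reached 10 in 3 or more libraries, with 1 mean per group and a variance trend, two-sided, Benjamini-Hochberg adjusted over all tested genes. Calls needed an adjusted p of 0.05 and a log2 fold change of 1 (adjusted p alone for the interaction). The script was tested on simulated data. Lengths came from GENCODE M21, promoters from RefSeq. Folds against a group without reads used a floor of 3 reads per library; other ratios are of summed reads scaled for depth. 4 rows with repeated symbols were kept as separate rows.

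The members and pathway lists were chosen with earlier results of these data known. Named were the members, all ligand, receptor and processing genes with enough reads, the called genes of the other lists with the 3 largest changes, and the 3 genes most like each member. Grk2 and Grk3 were matched through older symbols. Alternatives were pseudocounts of 0.5 and 10, no filter or 50, equal totals, quantile normalization, edgeR 4.0.16, DESeq2 1.42.0, a replicate block, single contrasts and each library left out. Shared exon bases were added as an alternative after seeing the data.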

Additional observations from a re-analysis of the deposited data

How the results depend on the processing

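The 7 tests of members between lines or of the interaction kept their side of the threshold in 125 of 125 alternative values, and 0 were called. The fitted Ramp3 difference after NE stayed above 0 but changed in size. In vector cells it was 2.57 with a pseudocount of 10, 5.11 with quantile normalization, 5.35 with edgeR and 5.47 with DESeq2. In tSema4B cells it was 7.20 with a pseudocount of 0.5, 3.06 with 10, 5.57 with quantile normalization, 9.29 with edgeR and 8.21 with DESeq2. The unstimulated libraries had 3 reads or fewer, and the cause was not tested. Leaving out 1 library turned the sign of 4 uncalled differences: Ramp2 between lines after NE (-0.067 to 0.49), Ramp2 after NE in vector (-0.55 to 0.066), and the interactions of Calcrl (-0.30 to 0.49) and Ramp2 (-0.93 to 0.00090). Leaving out exon bases shared with another gene gave a mean Ramp3 share of 92.6% in vector NE and 92.9% in tSema4B NE libraries. Ramp2 had no value under the filter of 50.

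The replicate numbers did not pair the libraries, since deviations of same-numbered libraries correlated between -0.047 and 0.028 over 18 pairs. With a replicate block Calcrl had an adjusted p of 0.581 and 0.260 between the lines without and with NE, and the Mme call in vector cells was lost (-1.17, adjusted p = 0.0574). Among named pathway genes 1348 of 1410 alternative values kept their side of the threshold, whether called or not. These include the NE differences of Ackr3 and Calca, which are given above with no test. Read numbers limit Ramp1 in all groups and Ramp3 without stimulation, and add to the spread of Ramp2.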
